A study of Mus musculus with 9 samples.

Results

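Heat shock proteins are molecular chaperones, and 10 genes that encode the main cytosolic and mitochondrial ones were followed across mouse hippocampal RNA. They were taken as the rows of the deposited gene table whose symbol is Hspa1a, Hspa1b, Hspa8, Hsph1, Dnajb1, Hspb1, Hsp90aa1, Hsp90ab1, Hspd1 or Hspe1. Each symbol matched 1 row, which gave 10 of the 57010 genes in the table, and all 10 passed the filter on low counts that left 17967 genes for testing. The 9 libraries came from hippocampus of C57BL/6J mice, 3 in each of 3 groups. Sham mice had a lumbar spinal nerve located but left untied and then received solvent. SNL mice had that nerve ligated, a surgical model of neuropathic pain, and also received solvent. CBD mice had the ligation and were then treated for 15 days with cannabidiol, a cannabis compound that does not intoxicate, given intraperitoneally at 5 mg/kg. A group with cannabidiol and no ligation was not analysed here. Age and sex are not given in the labels, nor whether the libraries of a group are separate animals, so p-values here reflect the spread of these libraries alone, and that spread may be technical.

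HSP70 proteins bind exposed hydrophobic stretches of unfolded proteins and release them in cycles driven by ATP. HSP40 proteins deliver the client and start the cycle, HSP110 proteins exchange the nucleotide, and HSP90 finishes the folding of kinases and steroid receptors. In mitochondria HSP60 and its lid HSP10 form a folding chamber. When unfolded proteins build up, heat shock factor 1 binds heat shock elements, alternating GAA and TTC units, in the promoters of many of these genes. Neurons hold large amounts of the constitutive forms, while the inducible HSP70 is low in unstressed brain.

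Promoter stretches of 4 members are shown because each carries a pair of the GAA and TTC units. Those of Hspa1a and Hspa1b are also nearly the same. Only the Hspe1 stretch holds a form of 3 units. They are RefSeq windows of the older build GRCm38.p6, read 5′ to 3′ on the strand of the gene. Capitals mark matches to the pair of units GAANNTTC or TTCNNGAA. The stretches lie at chr17:34972157-34972356 on the minus strand (Hspa1a), chr17:34959239-34959438 on the minus strand (Hspa1b), chr5:135887779-135887858 on the plus strand (Hspb1) and chr1:55088053-55088082 on the plus strand (Hspe1).
Hspa1a: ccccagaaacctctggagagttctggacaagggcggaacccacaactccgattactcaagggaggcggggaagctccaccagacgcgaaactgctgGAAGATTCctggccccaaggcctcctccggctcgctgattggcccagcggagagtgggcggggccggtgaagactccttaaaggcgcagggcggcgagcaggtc
Hspa1b: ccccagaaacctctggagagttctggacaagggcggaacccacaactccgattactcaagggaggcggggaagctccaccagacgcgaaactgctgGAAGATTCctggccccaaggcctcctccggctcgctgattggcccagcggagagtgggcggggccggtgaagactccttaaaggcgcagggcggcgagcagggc
Hspb1: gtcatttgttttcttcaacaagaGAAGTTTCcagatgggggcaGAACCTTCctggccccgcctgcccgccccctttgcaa
Hspe1: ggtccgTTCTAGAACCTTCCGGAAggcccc

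The 200 printed bases of Hspa1a and Hspa1b differ at 1 position, and the whole 300-base windows at 4. The Hspe1 stretch runs through TTC, GAA, TTC and GAA without a break. It lies between the start of Hspe1 and 1 of the 2 annotated starts of Hspd1, a gene on the opposite strand, and the window of that Hspd1 start holds the same element on the other strand. RefSeq windows from 250 bases before to 50 bases after the start were at hand for 7 of the 10 members, in 10 windows. The 3-unit forms, which are GAA, TTC and GAA or TTC, GAA and TTC with NN between the units, were searched on both strands and found for 3 of these 7 members (Hsph1, Hspd1 and Hspe1) and in 0.603% of all 32851 windows. GAANNTTC was found for 6 of the 7 and in 7.86% of all windows, and TTCNNGAA for 3 of the 7 and in 8.52%. Both are their own reverse complement, and the 3-unit matches contain them. Dnajb1 had no match to either pair or to the 3-unit forms. The 3-unit match of Hsph1 lies after the start of transcription. A separate TTCNNGAA match of Hsph1 lies 33 or 54 bases before the start, depending on the window. The CCAAT box, searched as CCAAT and ATTGG, was found for 5 of the 7 members and in 37.4% of all windows. A match is only a description of the letters in a window.

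Library totals ran from 16972620 to 20470546 expected counts, and the 10 members took 0.469% to 0.57% of them. All 9 markers of hippocampal neurons searched were detected in every library, with a summed level of 484 to 795 CPM (counts scaled to the library total) in Sham, 297 to 471 in SNL and 303 to 616 in CBD. SNL 1, SNL 2 and CBD 1 stood apart through transcripts of the hypothalamus. The summed level of 8 hypothalamic markers was 297 CPM, 65.8 CPM and 379 CPM in these 3, against 6.58 to 7.84 CPM in the other 6. Values without these 3 libraries are given below for Hspa1a, Hspa1b, Hsph1, Hspb1, Hsp90aa1 and Hspe1. Without them SNL 3 is the only SNL library. Such values for comparisons with SNL therefore rest on SNL 3 and are effect sizes only. Replicates of a group differed well beyond sampling noise, with a chi-square per gene of at least 6.44. Across 17642 genes, which are not independent replicates, fold changes were related to transcript GC content (Spearman rho -0.15 in SNL against Sham, -0.44 in CBD against SNL and -0.56 in CBD against Sham) and to length (-0.19, 0.36 and 0.16). In bulk tissue, fewer cells of a type and less RNA per cell cannot be told apart.

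The members covered a wide range of abundance. Per kilobase of exon, the mean level over the 9 libraries was 806 CPM for Hspa8, 683 for Hsp90ab1 and 315 for Hsp90aa1, the constitutive HSP70 and the HSP90 pair. The libraries of Hspa8 and Hsp90ab1 overlapped on this scale. Hspd1 (70.6), Hspe1 (68.5) and Hsph1 (68.4) formed a middle level, at which the libraries of the 3 genes overlapped. Dnajb1 stood at 13.4, Hspb1 at 7.46, Hspa1b at 5.20 and Hspa1a at 4.64 CPM per kilobase, and the libraries of the last 3 overlapped. Hspa8 ranked 25th among all tested genes by mean CPM and Hsp90ab1 31st. Spread between libraries also differed among the members. The coefficient of variation over the 9 libraries was 4.41% for Hsp90ab1, 4.98% for Hsph1, 8.71% for Dnajb1, 8.94% for Hspa8, 9.60% for Hspd1 and 10.95% for Hsp90aa1, against a median of 16.5% over 15929 tested genes of at least 1 CPM. It was 23.8% for Hspe1, 30.2% for Hspa1a, 38.5% for Hspa1b and 44.3% for Hspb1. The median is over genes of all levels from 1 CPM up and was not matched to the abundance of the members.

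**Figure D1:**
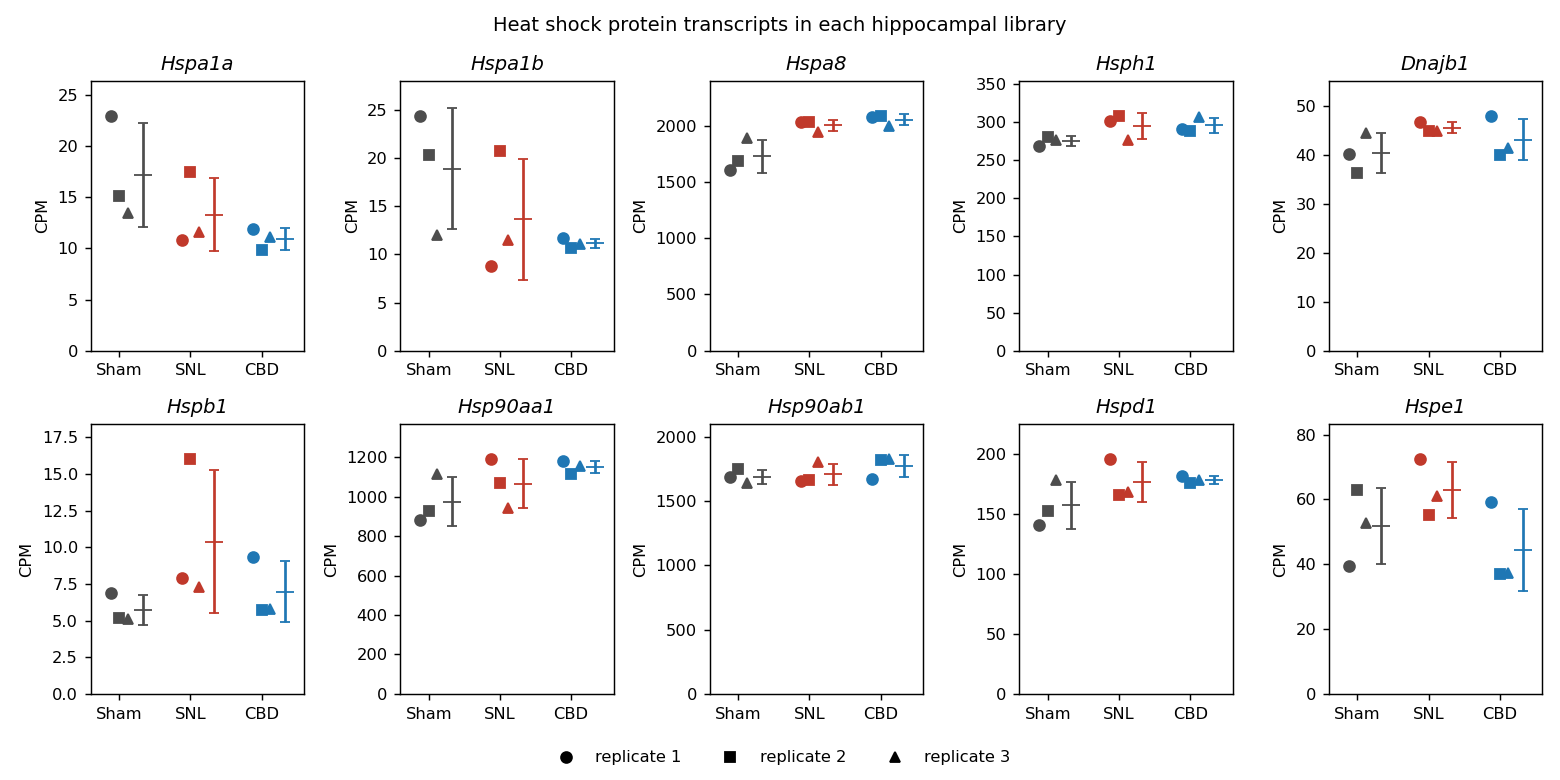
Level of each of the 10 heat shock transcripts in each library, in CPM on an axis from 0, with symbols for replicates 1 to 3 and, beside them, the group mean with its SD (n = 3). Hspa1a and Hspa1b reach 22.9 and 24.3 CPM in Sham 1 and stay between 9.80 and 11.9 CPM in the CBD libraries, Hspb1 reaches 16.0 CPM in SNL 2, and Hsp90ab1 is nearly level.

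By edgeR's quasi-likelihood test, 0 of the 10 members passed an adjusted p under 0.05 in any of the 3 comparisons, and 0% of the 17967 genes did so in each. At an unadjusted p under 0.05, SNL against Sham held 1 member (Hspb1) against 13.8% of all genes, CBD against SNL held 1 (Hspe1) against 13.7%, and CBD against Sham held 3 (Hspa1a, Hspa1b and Hspa8) against 16.3%. The DESeq2 Wald test also called 0 members in each comparison, where it called 2.48%, 1.21% and 3.55% of the genes it could adjust. The counts of 1 in 10 lie near these shares, and the 3 in 10 of CBD against Sham above its share, with Hspa1a and Hspa1b sharing reads. The values below are therefore descriptions of single genes, none of which passed.

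The inducible HSP70 genes Hspa1a (ENSMUSG00000091971) and Hspa1b (ENSMUSG00000090877), a tandem pair that encodes nearly the same protein, were highest in sham mice and lowest in ligated mice given cannabidiol. Hspa1a stood at 22.9, 15.1 and 13.4 CPM in the Sham libraries 1 to 3, at 10.9, 17.4 and 11.6 in SNL and at 11.9, 9.80 and 11.1 CPM in CBD. Every CBD library lay below every Sham library, while SNL overlapped both groups, with SNL 2 high and SNL 1 and SNL 3 near the CBD level. Hspa1b followed the same order, at 24.3, 20.3 and 12.03 CPM in Sham, 8.75, 20.7 and 11.5 in SNL and 11.6, 10.7 and 11.1 CPM in CBD. In CBD against Sham the log2 fold change was -0.65 for Hspa1a (SE 0.23, edgeR adjusted p = 0.238) and -0.76 for Hspa1b (SE 0.32, edgeR adjusted p = 0.280). Of all tested genes, 11.1% had every CBD library below every Sham library.

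The 2 genes share sequence, and 47.1% of the 100-base stretches of the Hspa1a transcript also occur in that of Hspa1b. Their separate counts are therefore uncertain, and Hspa1a took from 42.6% (Sham 2) to 55.3% (SNL 1) of the pair's counts. Summed before the fit, the pair stood at 36.0 CPM ± 10.9 in Sham, 26.9 CPM ± 9.85 in SNL and 22.1 CPM ± 1.53 in CBD (mean ± SD, n = 3). The log2 fold change of the sum was -0.42 (95% interval -0.996 to 0.16) in SNL against Sham, -0.29 (-0.87 to 0.30) in CBD against SNL and -0.70 (-1.29 to -0.12, edgeR adjusted p = 0.245) in CBD against Sham. The SD was smallest in CBD, where the 3 libraries lay between 20.5 and 23.6 CPM, while Sham spanned 25.4 to 47.2 and SNL 19.6 to 38.1.

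The difference was smaller without Sham 1. Without that library the log2 fold change in CBD against Sham was -0.38 for Hspa1a and -0.54 for Hspa1b, and with offsets for transcript GC content and length it was -0.36 and -0.50. In SNL against Sham the values were -0.10 and -0.24 without Sham 1 and -0.61 and -0.90 without SNL 2. In CBD against SNL they were -0.04 and 0.14 without SNL 2. Without the 3 libraries with hypothalamic transcripts, Hspa1a and Hspa1b stood at -0.56 and -0.71 in SNL against Sham and at -0.15 and -0.07 in CBD against SNL, and the GC and length offsets gave -0.09 and -0.10 in the latter. The 3 libraries with the highest sum of the pair, Sham 1, SNL 2 and Sham 2, were also those with the highest summed level of 12 immediate early genes, markers of recent neuronal activity, at 309, 271 and 270 CPM, against 139 to 209 CPM in the other 6. Their summed levels of 8 microglial markers were 307, 325 and 343 CPM, against 235 to 308. Within the immediate early list, SNL 2 was the highest library for Fos (17.9 CPM). Its Junb was 20.3 CPM, against 32.7 in Sham 1 and 35.1 in Sham 2. The immediate early and microglial lists are among 10 marker lists read, and the part of either in the result was not tested.

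Hspa8 (ENSMUSG00000015656), the constitutive HSP70 that uncoats clathrin vesicles and folds newly made proteins, stood the other way. It was at 1606, 1689 and 1888 CPM in Sham, at 2033, 2033 and 1947 in SNL and at 2081, 2086 and 1997 CPM in CBD. Every ligated library, with or without cannabidiol, lay above every Sham library, and the SNL and CBD ranges overlapped. Of all tested genes, 7.94% had every SNL library above every Sham library, and 10.6% had every CBD library above every Sham library. The share of genes with both was not computed. The log2 fold change of Hspa8 was 0.21 in SNL against Sham (SE 0.10, edgeR adjusted p = 0.388) and 0.25 in CBD against Sham (SE 0.10, edgeR adjusted p = 0.278). The latter was 0.16 when GC and length offsets were used. These 2 comparisons share the Sham libraries. In CBD against SNL it was 0.04 with a 95% interval from -0.19 to 0.26, a fold of 0.875 to 1.20. Among the 10 marker lists read, the sums of some for other tissues separated in the same way. Summed endothelial and pericyte markers were 331 to 382 CPM in Sham, 465 to 589 in SNL and 415 to 463 in CBD. Summed thalamus and habenula markers were 331 to 465, 546 to 1309.5 and 491 to 663 CPM. By single gene of the endothelial and pericyte list, Flt1, Slco1a4 and Rgs5 had every CBD library above every Sham library. Cldn5, Pecam1, Kcnj8, Vtn and Cdh5 overlapped between CBD and Sham. Summed hippocampal markers were lower in every SNL library than in every Sham library, and the mitochondrial share of counts was 3.20% to 4.56% in Sham, 4.76% to 6.29% in SNL and 4.52% to 6.65% in CBD. The part of these differences in the Hspa8 values was not tested.

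Per kilobase, the ratio of Hspa8 to the summed Hspa1a and Hspa1b was 40.9, 57.2 and 89.5 in Sham, 125, 64.0 and 102 in SNL and 106, 122 and 108 in CBD. All CBD libraries lay above all Sham libraries in this ratio. SNL overlapped both groups.

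The partners of HSP70 differed little between libraries. Hsph1 (ENSMUSG00000029657), the HSP110 nucleotide exchange factor, stood at 268, 281 and 277 CPM in Sham, 302, 308 and 276 in SNL and 292, 289 and 307 CPM in CBD. All CBD libraries were above all Sham libraries, by a log2 fold change of 0.10 (95% interval -0.10 to 0.31), which was 0.028 when GC and length offsets were used. In SNL against Sham it was 0.10, and 0.013 without the 3 libraries with hypothalamic transcripts. Dnajb1 (ENSMUSG00000005483), the inducible HSP40, stood at 40.3, 36.3 and 44.6 CPM in Sham, 46.9, 45.0 and 45.0 in SNL and 48.0, 40.0 and 41.5 CPM in CBD. All SNL libraries lay above all Sham libraries, and the log2 fold change was 0.17 (95% interval -0.07 to 0.42, edgeR adjusted p = 0.500), which was 0.063 with 1 surrogate variable in the fit.

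Hspb1 (ENSMUSG00000004951), the small heat shock protein that keeps unfolded proteins soluble and guards the actin skeleton, had the largest fold change of the members. It stood at 6.88, 5.21 and 5.10 CPM in Sham, 7.88, 16.0 and 7.28 in SNL and 9.37, 5.73 and 5.79 CPM in CBD. All SNL libraries lay above all Sham libraries, with SNL 2 far above the rest, and CBD 1 lay above the other CBD libraries. SNL against Sham gave a log2 fold change of 0.86 (SE 0.32, 95% interval 0.15 to 1.57, edgeR adjusted p = 0.291), which was 0.40 without SNL 2 and 0.35 without the 3 libraries with hypothalamic transcripts. CBD against SNL gave -0.58 (SE 0.32, adjusted p = 0.446), which was -0.12 without SNL 2 and -0.24 when GC and length offsets were used.

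As for Hspb1, every SNL library lay above every Sham library in the summed endothelial and pericyte markers and in the summed thalamus and habenula markers given above, and SNL 2 was the highest library in both. SNL 2 was also highest in the summed levels of choroid plexus markers (2197 CPM, against 139 to 1875 in the other 8) and of oligodendrocyte markers (14716 CPM, against 8109 to 12768). None of these lists had a marker at 0 in any library. Hspb1 counts were small, from 99.8 to 304 expected counts in a library. The part of these tissues in the Hspb1 values was not tested.

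Of the cytosolic HSP90 pair, Hsp90ab1 varied least of all members and Hsp90aa1 more. Hsp90aa1 (ENSMUSG00000021270), the inducible form, stood at 883, 929 and 1115 CPM in Sham, 1189, 1070.4 and 941 in SNL and 1179.7, 1118 and 1154 CPM in CBD. All CBD libraries lay above all Sham libraries, by a narrow margin, and the log2 fold change was 0.24 (95% interval -0.04 to 0.52, edgeR adjusted p = 0.375), which was 0.089 when GC and length offsets were used. Hsp90ab1 (ENSMUSG00000023944), the constitutive form, stood at 1682, 1745 and 1636 CPM in Sham, 1654, 1660.5 and 1802 in SNL and 1669, 1817 and 1822 CPM in CBD. The groups overlapped in every comparison. The 95% interval of its fold was 0.867 to 1.18 in SNL against Sham, 0.891 to 1.21 in CBD against SNL and 0.900 to 1.22 in CBD against Sham, the tightest set of the members with that of Hsph1.

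The mitochondrial chaperonin genes Hspd1 (ENSMUSG00000025980) and Hspe1 (ENSMUSG00000073676) differed in their pattern over the libraries. Hspd1, which encodes HSP60, stood at 141, 153 and 179 CPM in Sham, 196, 166 and 169 in SNL and 182, 176 and 179 CPM in CBD, with overlap between the groups in every comparison. Its log2 fold change was 0.17 (95% interval -0.08 to 0.42) in SNL against Sham and 0.02 (-0.24 to 0.27) in CBD against SNL. Hspe1, which encodes the HSP10 lid, stood at 39.5, 63.0 and 52.8 CPM in Sham, 72.4, 55.3 and 61.0 in SNL and 59.1, 36.9 and 37.3 CPM in CBD. CBD 2 and CBD 3 lay below all other libraries, while CBD 1 lay within the SNL range.

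In CBD against Sham the log2 fold change of Hspe1 was -0.22 (95% interval -0.70 to 0.26, edgeR adjusted p = 0.635), with overlap between the groups. In CBD against SNL it was -0.50 (SE 0.22, 95% interval -0.98 to -0.02, edgeR adjusted p = 0.351). Limma voom with sample weights, which called 1132 genes in that comparison, gave -0.76 with an adjusted p of 0.0341, the only call of a member in any alternative. Without CBD 1 the edgeR value was -0.77. With GC and length offsets it was -0.41, and without the 3 libraries with hypothalamic transcripts -0.72. Per kilobase, Hspe1 stood at 0.879 to 1.29 times the level of Hspd1 in Sham and 1.04 to 1.16 times in SNL, and at 1.02, 0.657 and 0.653 times in CBD 1 to 3. The element printed above lies before the start of Hspe1 and also before an annotated start of Hspd1. Its part in the Hspe1 values was not tested.

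**Figure D2:**
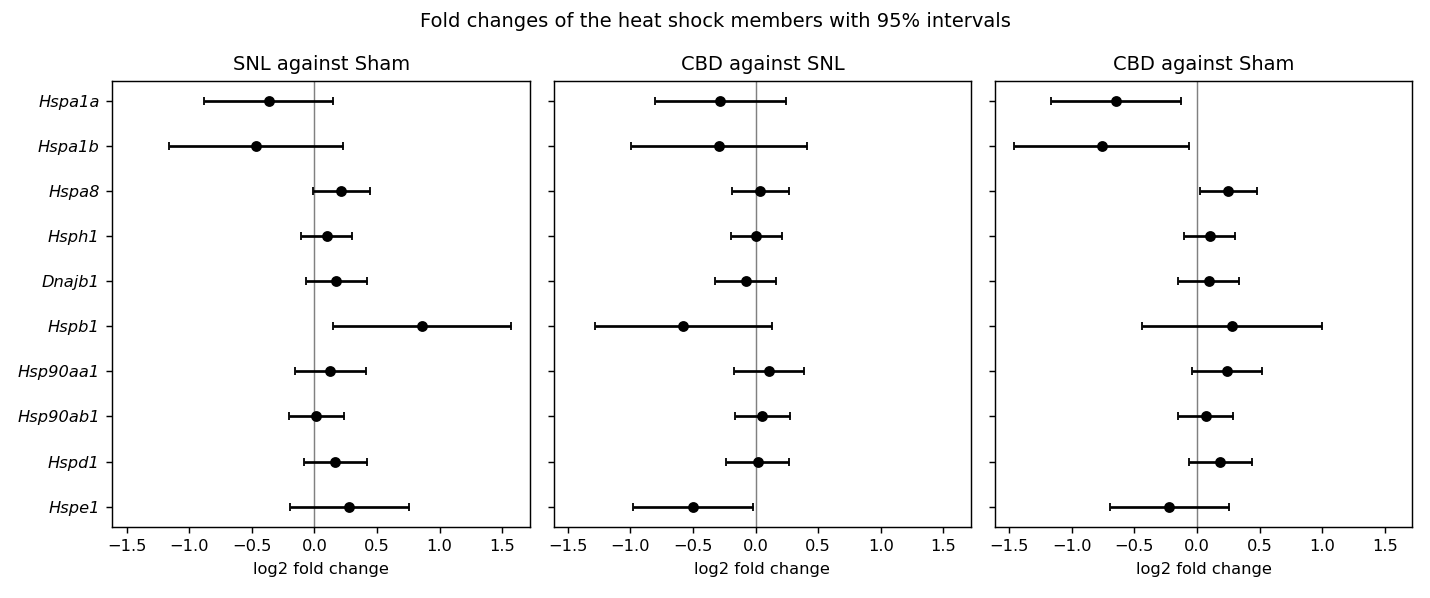
Log2 fold change of each member in SNL against Sham, CBD against SNL and CBD against Sham, with points for the edgeR estimate and bars for the 95% interval (3 libraries a group). Most points lie within 0.3 of 0; the widest intervals belong to Hspb1, Hspa1b and Hspa1a, and those of Hsph1 and Hsp90ab1 are narrow.

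Read by comparison, 8 of the 10 members had a positive log2 fold change in SNL against Sham (median 0.15), where 51.6% of all tested genes did (median 0.01). The exceptions were Hspa1a and Hspa1b. Groups did not overlap for 3 members, against 17.7% of all genes. These were Hspa8, Dnajb1 and Hspb1, all higher in SNL, as for 7.94% of all genes in that direction, and for 0 members in the other direction (9.81% of all genes). In CBD against SNL 5 members were positive, against 49.9% of all genes, and 5 negative (median -0.04, against -0.00115 for all genes). The groups overlapped for all 10 members and failed to overlap for 19.3% of all genes, of which the part with CBD higher was 9.18% and lower 10.1%. CBD against Sham had 7 positive members, against 50.1% of all genes (median 0.10, against 0.00074 for all genes). There 5 members did not overlap, against 21.7% of all genes. Of these, 3 were higher (Hspa8, Hsph1 and Hsp90aa1), as were 10.6% of all genes, and 2 were lower (Hspa1a and Hspa1b), as were 11.1%.

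Members varied in pairs across the 9 libraries. Of 45 pairs, 3 passed an exact two-sided permutation test of Pearson's r adjusted over the 45. Hspa1a and Hspa1b, which share reads, had r = 0.93 (adjusted p = 0.00711; Spearman rho 0.98, adjusted p = 0.00223). Hsp90aa1 and Hspd1 had r = 0.91 (adjusted p = 0.00711; rho 0.97, adjusted p = 0.00372), and r was 0.75 without Sham 1 and Sham 2, the libraries farthest from the median of Hsp90aa1. Hspa1b and Hspd1 had r = -0.91 (adjusted p = 0.00711; rho -0.77, adjusted p = 0.193), and -0.92 without Sham 1 and SNL 2.

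Within groups, as deviations from the group means, the r values of these 3 pairs were 0.89, 0.90 and -0.86. Hspa8 with Hspd1 (r = 0.86), Hspa8 with Hsp90aa1 (0.83) and Hspa1a with Hspd1 (-0.83) missed the threshold, each with an exact permutation adjusted p of 0.0550. Without Sham 1 and Sham 2 the r of Hspa8 dropped to 0.18 with Hspd1 and 0.43 with Hsp90aa1. Without Sham 1 and SNL 2 that of Hspa1a with Hspd1 was -0.63. Within groups the r values of these pairs were 0.80, 0.82 and -0.73. Hspd1 and Hspe1, the chaperonin and its lid, had r = 0.29. The values of all pairs share library depth and tissue content. No correlation used the GC and length offsets. Transcript GC content was 58.9% for Hspa1a, 58.1% for Hspa1b, 46.8% for Hspd1 and 43.7% for Hsp90aa1, and its part in these r values was not tested.

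**Figure D3:**
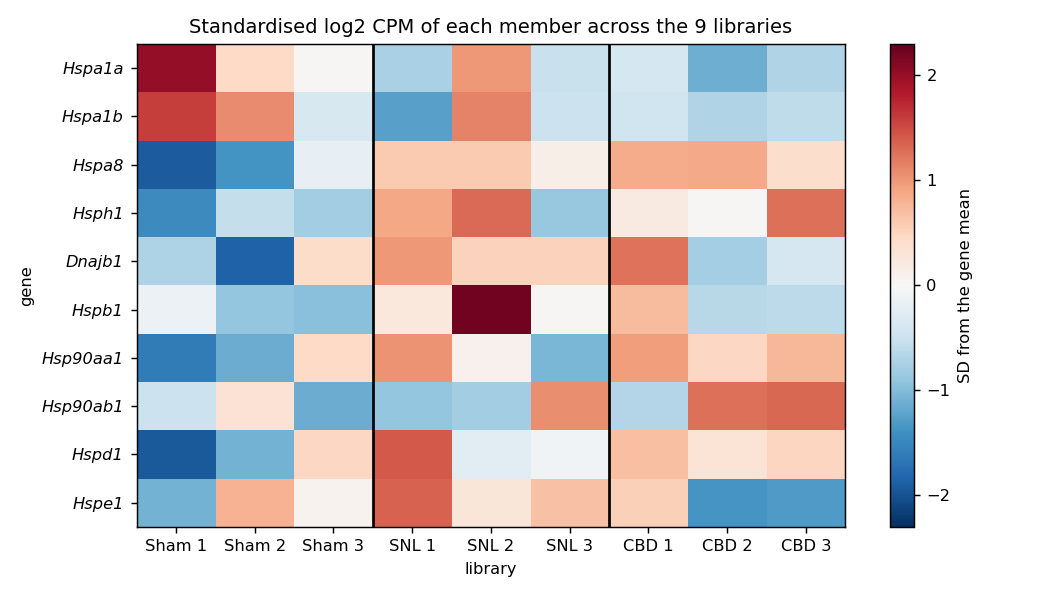
Standardised log2 CPM of each member (rows) in each library (columns, groups parted by black lines), as SD from the gene's mean over the 9 libraries, red above and blue below. Sham 1 is red for Hspa1a and Hspa1b and blue for Hspa8, Hsp90aa1 and Hspd1, and SNL 2 is the darkest cell for Hspb1.

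The mean of the standardised values of all 10 members was -0.57, -0.42 and -0.20 in Sham, 0.36, 0.61 and -0.06 in SNL and 0.37, -0.16 and 0.07 in CBD. Genes outside the chaperone and marker lists whose log2 CPM followed this mean most closely over the 9 libraries, among 15768 ranked, were Mob3b and Mreg (Pearson r 0.97 each), Pim1 (0.97), Fign, Vezf1 and Ccdc190 (0.96 each). They were picked as the highest of many, so their r carries no test.

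A wider set of 78 genes around the members, in 7 lists, was read from the same fit, and 75 of them passed the filter. By edgeR 0 of the 75 passed an adjusted p under 0.05 in any comparison. At an unadjusted p under 0.05, SNL against Sham held 9 higher genes and 3 lower ones, where all genes had 5.83% higher and 7.96% lower, 5 higher and 10 lower in CBD against SNL (6.5% and 7.2%) and 12 higher and 6 lower in CBD against Sham (7.41% and 8.87%). DESeq2 called 2, 0 and 4 of them in the same order, against 2.48%, 1.21% and 3.55% of all genes. Groups did not overlap for 9 higher and 6 lower genes in SNL against Sham (7.94% and 9.81% of all genes). In CBD against SNL these were 9 and 11 (9.18% and 10.1%), and in CBD against Sham 16 and 7 (10.6% and 11.1%). The median log2 fold change of the 75 was 0.09, -0.02 and 0.03. Fits with GC and length offsets, or with libraries left out, were read for the members only. List values in CBD against Sham may follow the trend with GC content there (rho -0.56), which was not tested.

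Small heat shock proteins had the largest list median in SNL against Sham, 0.34 over 4 tested genes, and -0.28 in CBD against SNL. Cryab, alpha B-crystallin, a chaperone abundant in oligodendrocytes and astrocytes, stood at 81.5, 92.2 and 108 CPM in Sham, 145, 168 and 119 in SNL and 115, 83.7 and 80.3 CPM in CBD. All its SNL libraries lay above those of both other groups, an order whose share among all genes was not computed. Its log2 fold change was 0.62 in SNL against Sham (SE 0.17, edgeR adjusted p = 0.232, DESeq2 adjusted p = 0.0435) and -0.63 in CBD against SNL (SE 0.17, edgeR adjusted p = 0.306). Summed oligodendrocyte markers were 8562 to 11597 CPM in Sham, 10398 to 14716 in SNL and 8109 to 9511 in CBD, and their part in the Cryab values was not tested. Hspb6, a small heat shock protein of muscle, had 0.52 (SE 0.22) in SNL against Sham at 2.73 to 5.78 CPM, and Hspb11 had 0.15 (SE 0.24). The fourth tested gene of the list, Hspb8, named here to complete it, had -0.08 (SE 0.15), with every SNL library below every Sham library. Hspb2, Hspb3 and Hspb7 had at most 11 counts in a library and were not tested.

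HSP90 co-chaperones differed in direction. Fkbp5, an HSP90 partner that lowers the affinity of the glucocorticoid receptor and is induced by glucocorticoids, had log2 fold changes of -1.03 (SE 0.16) in SNL against Sham, 0.40 (SE 0.16) in CBD against SNL and -0.63 (SE 0.16) in CBD against Sham, with edgeR adjusted p of 0.160, 0.334 and 0.213. The DESeq2 adjusted p was 3.2e-05, 0.224 and 0.0245. Chordc1, an HSP90 co-chaperone, stood at 46.3, 54.4 and 63.4 CPM in Sham, 73.4, 64.7 and 66.1 in SNL and 74.9, 82.8 and 97.6 CPM in CBD. No group overlapped another, an order whose share among all genes was also not computed. CBD against Sham gave 0.64 (SE 0.14, edgeR adjusted p = 0.213, DESeq2 adjusted p = 0.00873). Fkbp8, an anchor of HSP90 at the mitochondrial outer membrane, stood at -0.42 (SE 0.12, edgeR adjusted p = 0.213, DESeq2 adjusted p = 0.0346) in that comparison. Of the 17 genes of the list, 13 had positive values in SNL against Sham, 7 in CBD against SNL and 10 in CBD against Sham.

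Among the HSP70 relatives and exchange factors, all 15 tested, Bag4 had -0.29 (SE 0.11) in SNL against Sham and 0.40 (SE 0.11) in CBD against SNL, without overlap in either. Hspbp1, an HSP70 nucleotide exchange factor, had -0.39 (SE 0.11) in CBD against SNL and -0.38 (SE 0.11) in CBD against Sham. Hspa2, an HSP70 best known from testis, had -0.59 (SE 0.22) in SNL against Sham. Of the 11 HSP40 genes, Dnaja1, the main HSP40 partner of Hspa8, stood at 222, 246 and 272 CPM in Sham, 298, 266 and 309 in SNL and 298, 333 and 358 CPM in CBD. Its log2 fold change in CBD against Sham was 0.42 (SE 0.12, edgeR adjusted p = 0.213, DESeq2 adjusted p = 0.0346). Dnajb4 had 0.40 (SE 0.13) in that comparison. Dnajc6, auxilin, which recruits Hspa8 to clathrin coats, had -0.20 (SE 0.09) in SNL against Sham and 0.23 (SE 0.09) in CBD against SNL, each without overlap.

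Mitochondrial chaperones and proteases had 9 of 12 genes negative in CBD against Sham (median -0.10) and 8 of 12 positive in SNL against Sham (median 0.08). Clpp, the matrix protease, had 0.32 (SE 0.13) in SNL against Sham and -0.43 (SE 0.13) in CBD against SNL. Hspa9, the mitochondrial HSP70, had 0.26 (SE 0.10) in CBD against Sham, and the protease Htra2 had -0.35 (SE 0.13) in CBD against SNL. The TRiC chaperonin, which folds actin and tubulin, had 7 of 8 subunits positive in SNL against Sham (median 0.13) and 6 of 8 in CBD against Sham (median 0.14), with Tcp1 at 0.25 (SE 0.11), Cct8 at 0.23 (SE 0.12) and Cct3 at 0.16 (SE 0.10) in the latter.

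Of 8 heat shock factors and regulators, 6 were positive in SNL against Sham (median 0.13), 7 were negative in CBD against SNL (median -0.13) and 5 were negative in CBD against Sham (median -0.07). Hsf2 had 0.31 (SE 0.12) in CBD against Sham, at 17.9 to 22.5 CPM in Sham and 24.1 to 27.9 CPM in CBD. Hikeshi, which carries HSP70 into the nucleus, had 0.21 (SE 0.14) in that comparison. None of the genes named from these lists passed the edgeR threshold.

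**Figure D4:**
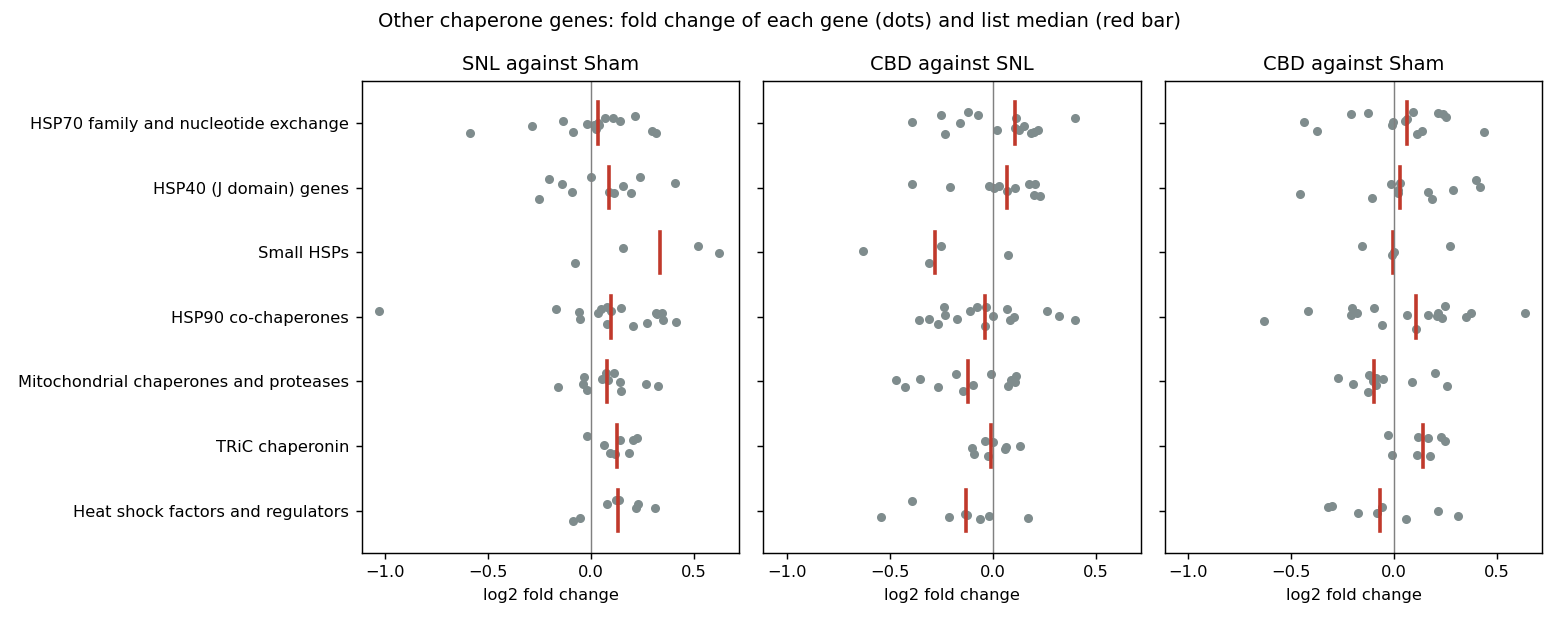
Log2 fold change of each tested gene of the 7 wider chaperone lists (grey dots, spread vertically at random) with the list median (red bar), by comparison. The dots centre near 0 in all 3 comparisons; Fkbp5 lies at -1.03 in SNL against Sham and Chordc1 at 0.64 in CBD against Sham.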

How the data were processed

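Gene expression was measured by mRNA sequencing of hippocampal tissue. The authors deposited 1 table of expected counts per gene and library, made with RSEM on the mouse build GRCm39, per the submitters' processing notes. The aligner, annotation, versions and filters were not given in the sources used here. Expected counts were rounded to whole numbers. EdgeR (4.0.16, R 4.3.3) filtered genes with filterByExpr, scaled libraries by TMM and ran the quasi-likelihood test with group as its factor in all 9 libraries (6 residual degrees of freedom), with Benjamini-Hochberg adjustment over 17967 genes and a threshold of 0.05. The script was tested on simulated data. CPM uses TMM-scaled totals. Log2 CPM for correlations had a prior count of 2. SE is the fold change over the square root of F, and 95% intervals use the fit's degrees of freedom. Totals of 16972620 to 20470546 counts per library, and 3 libraries a group, set the precision.

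Alternatives were DESeq2 (1.42.0) size factors and Wald test, limma (3.58.1) voom with sample weights, 1 surrogate variable (sva 3.50.0), other filters and thresholds, subsets of libraries, a replicate block, the summed Hspa1 pair, and offsets for GC content and length, the last added after the trends were known. Exon length and GC content come from GENCODE M21 (GRCm38) and were found for 98.2% of tested genes. The members and lists were chosen with earlier results of these data known. Named genes were the 10 members, the 3 genes of each wider list with the smallest p in any comparison, and the 6 genes most like the members' mean. One gene that this rule names is not reported here. CPM is not corrected for gene length, so levels of different genes were compared per kilobase.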

Additional observations from a re-analysis of the deposited data

How the results depend on the processing

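Of the member fold changes under settings that refit every member with no single library left out, 293 kept their direction and side of the threshold, 6 changed sign and 1 passed. The sign changes were Hsp90aa1 in SNL against Sham without the 3 libraries with hypothalamic transcripts (-0.044), and, in CBD against SNL, Hsph1 with no filter (-0.0018), with voom (-0.0060) and with GC and length offsets (-0.10), Hspa8 with the offsets (-0.029) and Hspd1 with voom (-0.028). The cause was not tested. With 1 library left out, 261 values kept direction and side and 9 changed sign, with ranges of -0.027 to 0.044 for Hsp90ab1 in SNL against Sham, and, in CBD against SNL, -0.043 to 0.035 for Hsph1, -0.54 to 0.14 for Hspa1b and -0.027 to 0.089 for Hspd1.

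The count of called members was 0 in every setting but voom in CBD against SNL, which called 1. Counts over all genes were 0 by the main test. For SNL against Sham, CBD against SNL and CBD against Sham they were 369, 150 and 372 by DESeq2. They were 1, 1132 and 1051 by voom, and 253, 1 and 56 with no filter. Without the 3 libraries with hypothalamic transcripts the count was 20 in CBD against Sham. Counts for SNL are not given there, because SNL 3 is then the only SNL library. In SNL against Sham there was 1 with the surrogate variable and 2 at an adjusted p under 0.1, and in CBD against Sham 1 with only the 6 libraries compared. With 1 library left out they ran from 0 to 8, 0 to 2 and 0 to 17, highest each time without CBD 1.

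The replicate block called 0 genes in each comparison. Deviations of libraries with the same number had correlations from -0.27 to 0.19. These are deviations from means of 3 libraries and may also carry tissue content. They cannot decide whether the numbers pair the samples, and the labels do not say. Counting limits Hspb1 most, at as few as 99.8 counts in a library.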

Other observations

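SNL 2 held the highest level of Hspb1 and, within SNL, of Hspa1a and Hspa1b. It was also the library with the highest Fos (17.9 CPM, against 3.97 to 12.1 in the other 8) and Dusp1 (29.2 CPM, against 10.5 to 14.8), both early response genes, while Egr4, another of them, was 6.68 CPM there, against 15.5 and 17.2 CPM in Sham 2 and Sham 1. These values were picked out after they were seen.

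Per kilobase, Hsp90aa1 stood at 0.391, 0.397 and 0.508 times the level of Hsp90ab1 in Sham, 0.536, 0.480 and 0.389 times in SNL and 0.527, 0.458 and 0.472 times in CBD, with overlap between all groups.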
